A study of Homo sapiens with 12 samples.

Results

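The proteasome and immunoproteasome genes were described in H1650 and A549, a pair of lung cancer cell lines, with and without over-expression of the splicing factor SRSF2. The members were the protein-coding genes PSMA1 to PSMA7, PSMB1 to PSMB10, PSMC1 to PSMC6, PSMD1 to PSMD14 and PSME1 to PSME4, 41 genes by name, of which 35 were found among the 16599 genes of the count table. PSMA2, PSMA3, PSMA6, PSMB3, PSMD2 and PSMD9 were not analysed here. The 35 genes comprised 5 that interferon is known to induce (PSMB8, PSMB9, PSMB10, PSME1 and PSME2, called inducible below) and 30 others, called constitutive. All 35 passed the filter on low counts.

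The proteasome degrades proteins tagged with ubiquitin. Its core particle is built from alpha rings, which gate entry, and beta rings, which hold the proteolytic sites. The regulatory particle has a base, with a ring of ATPases that unfold substrates, and a lid, which removes ubiquitin. In the immunoproteasome the catalytic subunits are exchanged: PSMB8 takes the place of PSMB5, PSMB9 that of PSMB6, and PSMB10 that of PSMB7. PSME1 and PSME2 form a cap that opens the core particle, and the peptides that are made supply class I antigen presentation.

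There were 3 libraries of polyadenylated RNA in each of 4 groups, namely H1650 over-expressing SRSF2, untreated H1650, A549 over-expressing SRSF2 and untreated A549. The control libraries are called untreated as labelled, although their titles carry the letters NC, so whether they received an empty construct is not known. The construct that carried SRSF2 and the number of clones are not given, and the RNA level of SRSF2 was not analysed here. The labels do not say that replicates came from separate cultures, and the spread behind each p-value may be technical. In bulk RNA, fewer cells that express a gene and less RNA per cell cannot be told apart. Total counts ran from 23876899 to 32079027 per library. Replicates varied most in H1650 SRSF2 cells (common biological coefficient of variation 0.0559, against 0.0338 in untreated H1650, 0.0344 in A549 SRSF2 and 0.0298 in untreated A549 cells). Of the epithelial markers, all 6 were counted in both lines, and their summed level was 9325 to 9843 CPM (counts scaled to library size) in H1650 SRSF2, 10190 to 10380 CPM in untreated H1650, 9497 to 9575 CPM in A549 SRSF2 and 9818 to 10460 CPM in untreated A549 libraries. The sums use plain library totals, unlike the means below, and rest mostly on keratin genes. Of the 6 genes 4 rose and 2 fell in H1650, where 31% of all genes rose and 31.3% fell. In A549 2 rose and 4 fell, where 16.4% and 15.9% of all genes did. KRT19 averaged 625 CPM in H1650 SRSF2 and 1304 CPM in untreated H1650 cells (log2 -1.06, edgeR adjusted p = 1.38e-23). EPCAM, an epithelial marker, averaged 359 CPM in H1650 SRSF2 and 307 CPM in untreated H1650 cells, and was low in A549 SRSF2 (3.72 CPM) and untreated A549 cells (5.72 CPM). CDH1 was also lower in A549 (26.2 CPM in SRSF2 and 38.2 CPM in untreated cells) than in H1650 (1230 CPM and 1309 CPM). Leukocytes carry much immunoproteasome; of 6 leukocyte markers 2 were in the table, CD14 and ITGAM, and together they gave 0.686 to 1.31 CPM in H1650 SRSF2 and 0.461 to 0.611 CPM in untreated H1650 libraries, and 13.2 to 13.9 CPM in A549 SRSF2 and 11.3 to 12.4 CPM in untreated A549 libraries. Of 5 fibroblast markers 2 were in the table (19.1 to 20.6 CPM in H1650 SRSF2, 21.4 to 22.7 CPM in untreated H1650, 8.63 to 10.3 CPM in A549 SRSF2 and 12.2 to 14.99 CPM in untreated A549 libraries), and of 4 endothelial markers none was. These sums pool genes that differed. With SRSF2, CD14 fell (log2 -0.63) and ITGAM rose (0.73) in A549. In H1650 ITGAM rose (1.87, to 0.664 CPM) and CD14 was not called. Untreated H1650 against untreated A549 cells had lower COL1A1 (log2 -0.35) and higher COL3A1 (4.38). The libraries are of cell lines, and whether other cells were present was not tested.

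The promoters of the inducible genes are shown because these 5 genes moved together in H1650. Each stretch holds 85 bases before and 15 bases from the annotated start on, from RefSeq on GRCh38.p14, read 5′ to 3′ on the gene's own strand. Capitals mark matches on either strand to GAAA, any 2 bases and GAAA, the core of the element bound by interferon regulatory factors.
PSMB8 (chr6:32844033-32844132, minus strand): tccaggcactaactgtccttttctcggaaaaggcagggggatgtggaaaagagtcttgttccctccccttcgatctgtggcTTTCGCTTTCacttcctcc
PSMB9 (chr6:32854107-32854206, plus strand): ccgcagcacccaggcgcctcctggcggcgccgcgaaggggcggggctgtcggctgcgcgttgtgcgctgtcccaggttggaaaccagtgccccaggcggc
PSMB10 (chr16:67936836-67936935, minus strand): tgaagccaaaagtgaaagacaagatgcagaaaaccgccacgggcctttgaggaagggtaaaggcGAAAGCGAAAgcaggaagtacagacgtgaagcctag
PSME1 (chr14:24136109-24136208, plus strand): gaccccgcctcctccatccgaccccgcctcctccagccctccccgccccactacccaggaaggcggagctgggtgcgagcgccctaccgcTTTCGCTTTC
PSME2 (chr14:24146596-24146695, minus strand): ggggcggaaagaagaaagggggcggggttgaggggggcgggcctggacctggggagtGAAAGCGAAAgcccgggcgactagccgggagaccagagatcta
PSMB5, constitutive (chr14:23034886-23034985, minus strand): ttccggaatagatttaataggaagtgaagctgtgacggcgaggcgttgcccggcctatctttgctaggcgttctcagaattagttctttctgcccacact

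The same letters, GAAAGCGAAA, stand in PSMB10 and PSME2 on the gene's strand and in PSMB8 and PSME1 as their reverse complement TTTCGCTTTC. Promoter windows (250 bases before to 50 after a start) were held for 30 of the 35 members, and these 4 were the members with these letters, which 35 of all 35116 windows (0.0997%) hold. These exact letters were chosen after the matches were seen. The looser core was found in 1255 windows (3.57%) and in 6 of the 30 members (6 of their 35 windows), the other 2 being PSMA4 and PSMB4. PSMB8 and PSMB5 each have a pair of windows, and the other window of each held no match to this core. TTCNNNGAA, a core of STAT binding that reads alike on both strands, was in 7.66% of all windows. It was in 5 of the 35 member windows, those of PSMB5, PSMB8, PSMC4, PSMD3 and PSME3. TGACNNNGC, a core of the antioxidant response element that NFE2L1 and NFE2L2 bind, was in 13.4% of all windows. It was in 11 of the 35 windows held for the 30 members. These 11 windows belong to PSMA4, PSMB9, PSMC4, PSMC5, PSMD1, PSMD3, PSMD5, PSMD12, PSME1, PSME2 and PSME4. None of these motif matches overlapped another in the stretches printed. A match is a run of letters and was not tested as a site.

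In H1650, SRSF2 over-expression went with higher RNA of most proteasome genes, inducible and constitutive. By the edgeR quasi-likelihood test (adjusted p under 0.05 over 15991 genes), 27 of the 35 members rose and 4 fell, where 31% of all genes tested rose and 31.3% fell. The median log2 fold change of the members was 0.19, against 0.00 for all genes tested. All 5 inducible genes rose, and so did 22 of the 30 constitutive genes, while 4 constitutive genes fell (PSMB1, PSMD1, PSMD10 and PSMD12). Most constitutive changes were small. With a log2 fold change of at least 0.25 also required, 15 of 35 members (42.9%) rose and 0 fell, against 24.8% and 24.9% of all genes. Abundant genes pass the test at smaller changes: among the 7339 genes of at least 25 CPM on average 37.7% rose and 40.5% fell, and among the 32 members of that level 24 rose (75.0%) and 4 fell (12.5%). With plain library totals in place of TMM scaling 19 members rose and 7 fell, where 4116 of all 15991 genes rose and 5947 fell. Without H1650 SRSF2 replicate 3 the member counts were 27 and 6, where 4816 of 16219 genes rose and 4903 fell.

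**Figure D1:**
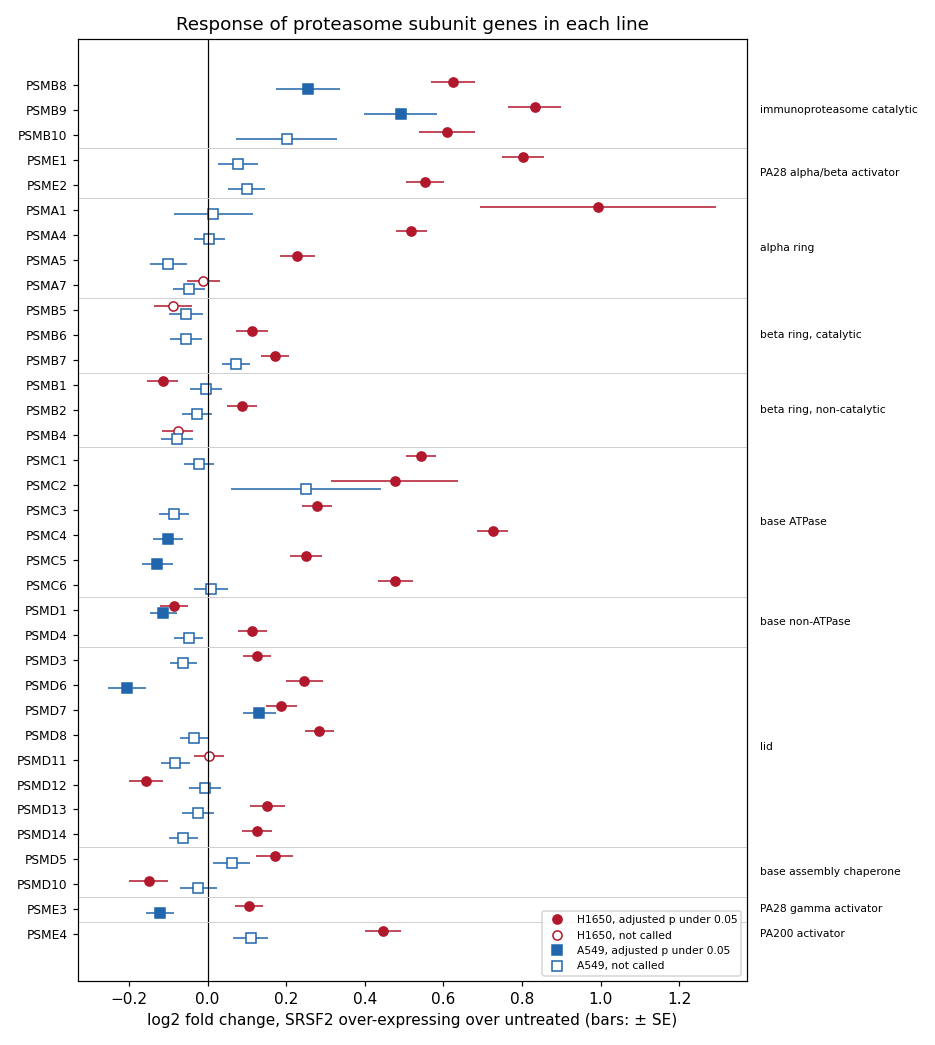
Log2 fold change of SRSF2 over-expressing over untreated cells (x axis, bars ± SE) for the 35 members, by role, in H1650 (red circles) and A549 (blue squares); filled symbols passed an edgeR adjusted p of 0.05. The 5 inducible genes lie between 0.55 and 0.83 in H1650, while in A549 the members lie between -0.20 and 0.49.

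The inducible catalytic subunits all rose in H1650. PSMB8, which takes the place of PSMB5 (GRCh38 chromosome 6, 32840717 to 32844703), gave 89.3, 97.1 and 102 CPM in H1650 SRSF2 libraries, against 61.6, 57.2 and 68.4 CPM in untreated H1650 libraries. Every SRSF2 library lay above every untreated one, and the log2 fold change was 0.62 (SE 0.06, edgeR adjusted p = 8.47e-12). PSMB9 (chromosome 6, 32844136 to 32859585) gave 57.0, 61.5 and 67.6 CPM in H1650 SRSF2 libraries, against 33.6, 32.7 and 38.3 CPM in untreated H1650 libraries (log2 0.83, SE 0.07, edgeR adjusted p = 6.12e-13). PSMB10 (chromosome 16, 67934502 to 67937087) gave 38.3, 46.6 and 48.0 CPM in H1650 SRSF2 libraries, against 29.6, 29.1 and 28.4 CPM in untreated H1650 libraries (log2 0.61, SE 0.07, edgeR adjusted p = 4.25e-09). Neither gene's groups overlapped, and replicate 1 was the lowest SRSF2 library for all of PSMB8, PSMB9 and PSMB10.

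The constitutive catalytic subunits moved little. PSMB5, which carries the chymotrypsin-like activity, gave 59.0, 68.2 and 67.3 CPM in H1650 SRSF2 libraries, against 66.9, 70.5 and 69.6 CPM in untreated H1650 libraries (log2 -0.09, SE 0.05, edgeR adjusted p = 0.109), and the groups overlapped. It passed the test as lower with plain library totals (log2 -0.17, edgeR adjusted p = 0.00324), and without H1650 SRSF2 replicate 2 (edgeR adjusted p = 0.0369) or replicate 3 (edgeR adjusted p = 0.0438). PSMB6, with caspase-like activity, averaged 153 ± 5.71 CPM in H1650 SRSF2 cells and 141 ± 1.21 CPM in untreated H1650 cells (SD, n = 3 each; log2 0.11, SE 0.04, edgeR adjusted p = 0.0154), and was not called with plain library totals (edgeR adjusted p = 0.486) or without untreated replicate 2 (edgeR adjusted p = 0.0547) or SRSF2 replicate 2 (edgeR adjusted p = 0.11). PSMB7, with trypsin-like activity, averaged 236 ± 9.90 CPM in H1650 SRSF2 cells and 209.9 ± 0.430 CPM in untreated H1650 cells (log2 0.17, SE 0.04, edgeR adjusted p = 1.03e-04).

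**Figure D2:**
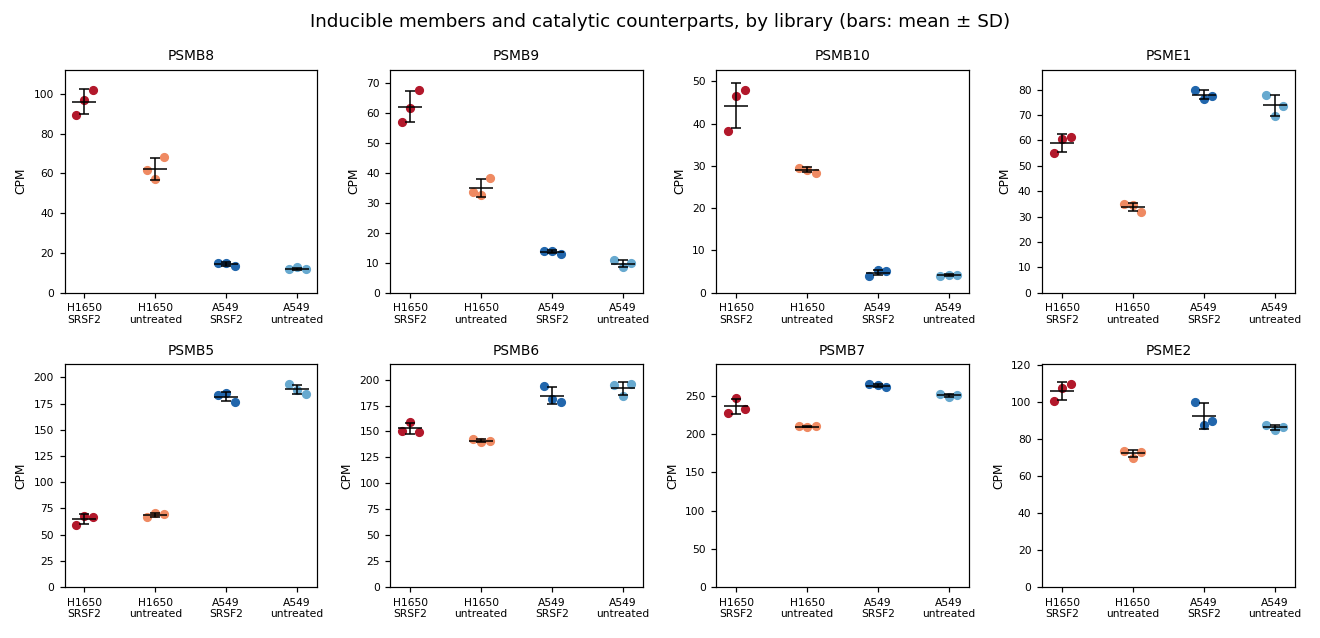
CPM (TMM-scaled, y axis from 0) of the inducible genes and of PSMB5, PSMB6 and PSMB7 in each library; points are libraries and bars the mean ± SD of 3. PSMB8 lies at 89.3 CPM or more in the H1650 SRSF2 libraries and at 68.4 CPM or less in untreated H1650, while PSMB5 overlaps between these groups.

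The subunits of the inducible cap rose too in H1650. PSME1 gave 55.0, 60.7 and 61.3 CPM in H1650 SRSF2 libraries, against 34.9, 34.6 and 31.9 CPM in untreated H1650 libraries (log2 0.80, SE 0.05, edgeR adjusted p = 5.95e-15). PSME2 gave 100.5, 108 and 109.6 CPM in H1650 SRSF2 libraries, against 73.7, 69.9 and 72.9 CPM in untreated H1650 libraries (log2 0.55, SE 0.05, edgeR adjusted p = 3.21e-12). Both had separate groups. PSME1 and PSME2 are neighbours on chromosome 14 (24136158 to 24138967 and 24143362 to 24147570) and PSMB8 and PSMB9 on chromosome 6. PSMB8 and PSMB9 are on opposite strands and share 139 annotated exon bases, and both overlap PSMB8-AS1, so with the strandedness of the counting not stated some of their reads may be shared. PSME2 shares 216 exon bases with RNF31 on the other strand, which was at 15.2 CPM in H1650 SRSF2 and 13.7 CPM in untreated H1650 cells. The other activators also rose: PSME4, the cap of the nuclear proteasome that acts without ATP, averaged 153 ± 12.8 CPM in H1650 SRSF2 cells and 112 ± 2.88 CPM in untreated H1650 cells (log2 0.45, SE 0.05, edgeR adjusted p = 2.32e-10). PSME3, the nuclear relative of PSME1 and PSME2, averaged 216 ± 2.20 CPM in H1650 SRSF2 cells and 201 ± 5.43 CPM in untreated H1650 cells (log2 0.11, SE 0.04, edgeR adjusted p = 0.0107), and was not called with plain library totals (edgeR adjusted p = 0.549) or without untreated replicate 2 (edgeR adjusted p = 0.0879).

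Set side by side, the inducible genes changed by log2 0.55 to 0.83 in H1650 (median 0.62) and the constitutive ones by -0.16 to 0.99 (median 0.16). Of the 30 constitutive genes, 28 changed by less than the smallest inducible change, and PSMC4 and PSMA1 by more. The summed CPM of the inducible genes was 1.58 times as high in H1650 SRSF2 as in untreated H1650 cells, and that of the constitutive genes 1.123 times.

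The ATPases of the base moved most among the constitutive groups: all 6 rose in H1650, by log2 0.25 to 0.73. PSMC4 gave 275, 293 and 265.1 CPM in H1650 SRSF2 libraries, against 165.5, 168 and 170.3 CPM in untreated H1650 libraries. Its groups were far apart (log2 0.73, SE 0.04, edgeR adjusted p = 1.03e-17). PSMC1 averaged 196 ± 6.39 CPM in H1650 SRSF2 cells and 134 ± 2.32 CPM in untreated H1650 cells (log2 0.54, SE 0.04, edgeR adjusted p = 2.25e-14). It shares 4671 exon bases with NRDE2 on the other strand, which was at 14.8 CPM in H1650 SRSF2 and 15.5 CPM in untreated H1650 cells. PSMC6 (log2 0.48), PSMC3 (0.28) and PSMC5 (0.25) rose as well. PSMC5 overlaps FTSJ3 on the other strand by 874 exon bases, and FTSJ3 itself rose in H1650 (log2 0.47). PSMC2 had low counts, 56 to 166 per library, and its SRSF2 libraries spread widely in H1650 (6.61, 3.99 and 4.79 CPM, against 3.92, 3.52 and 3.58 CPM in untreated H1650). Without SRSF2 replicate 1 it was no longer called. Its level, 1.45 CPM per kilobase of exon in H1650 SRSF2 and 1.035 in untreated H1650 cells, was far under that of the other ATPases (at least 11.5 in untreated H1650), and as for PSMA1 below it is uncertain.

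**Figure D3:**
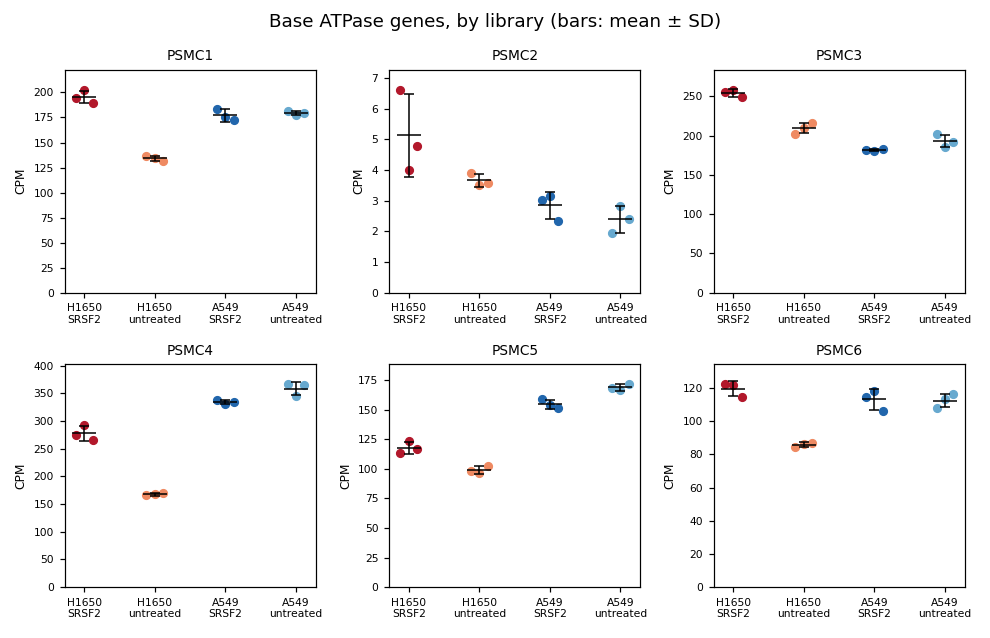
CPM (TMM-scaled, y axis from 0) of the 6 ATPase genes of the base in each library; points are libraries and bars the mean ± SD of 3. In every panel the H1650 SRSF2 libraries lie above the untreated H1650 libraries, most widely in PSMC4 (265.1 CPM or more against 170.3 CPM or less).

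The rings of the core particle were mixed in H1650. Of 4 alpha subunits measured 3 rose: PSMA4 (227 ± 11.9 CPM in H1650 SRSF2 and 159 ± 2.24 CPM in untreated H1650 cells, log2 0.52), PSMA5 (log2 0.23) and PSMA1. PSMA7, the most abundant alpha subunit measured per kilobase of exon, was not called (log2 -0.01, SE 0.04, edgeR adjusted p = 0.837). Of the non-catalytic beta subunits PSMB2 rose (log2 0.09, edgeR adjusted p = 0.0434, a call lost with RLE size factors, plain library totals, no filter or DESeq2, and without untreated replicate 1 or 2 or SRSF2 replicate 1 or 2), PSMB1 fell to 168 ± 8.78 CPM in H1650 SRSF2 cells, against 182 ± 5.54 CPM in untreated H1650 cells (log2 -0.11, SE 0.04, edgeR adjusted p = 0.0128), and PSMB4 was at log2 -0.08 (edgeR adjusted p = 0.098). PSMB1's groups overlapped, and it was not called without SRSF2 replicate 1 (edgeR adjusted p = 0.081) or with the groups of the contrast alone (edgeR adjusted p = 0.0534).

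PSMA1 had the largest fold change but few counts: 25, 23 and 19 in H1650 SRSF2 libraries, against 16, 11 and 10 in untreated H1650 libraries (log2 0.99, SE 0.30, edgeR adjusted p = 0.00454). In A549 the counts were 289 to 382 in SRSF2 and 355 to 394 in untreated libraries. PSMA1 is an essential core subunit, and its level per kilobase of exon in untreated H1650 cells, 0.122 CPM, was far under the 21.6 CPM of PSMA5. In GENCODE 29 it shares 814 of its 3301 exon bases with AC018523.2, a protein-coding annotation on the same strand. How reads from shared bases were counted is not stated, and the level of PSMA1 is uncertain.

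In the lid, 6 of 8 genes rose in H1650, 1 fell and 1 was not called. PSMD8 rose most (222 ± 5.94 CPM in H1650 SRSF2 and 182 ± 3.05 CPM in untreated H1650 cells, log2 0.28), then PSMD6 (0.25), PSMD7 (0.19), PSMD13 (0.15), PSMD14, the deubiquitinase of the lid (0.13), and PSMD3 (0.13). With plain library totals PSMD13, PSMD14 and PSMD3 were not called. PSMD12 fell to 86.2, 84.5 and 79.4 CPM in H1650 SRSF2 libraries, against 93.4, 95.7 and 89.7 CPM in untreated H1650 libraries, with no overlap (log2 -0.16, SE 0.04, edgeR adjusted p = 0.00182). PSMD11 gave log2 0.00 (SE 0.04, edgeR adjusted p = 0.943). Of the base subunits without ATPase activity, PSMD4, a ubiquitin receptor, rose (log2 0.11, a call lost with plain library totals or without untreated replicate 1), and PSMD1, the scaffold, fell to 183 ± 1.53 CPM in H1650 SRSF2 cells, against 194 ± 1.26 CPM in untreated H1650 cells (log2 -0.09, SE 0.04, edgeR adjusted p = 0.037). PSMD1 was not called without untreated replicate 1 (edgeR adjusted p = 0.0825), untreated replicate 2 (edgeR adjusted p = 0.0695) or SRSF2 replicate 2 (edgeR adjusted p = 0.0829). Its call was also lost with the groups of the contrast alone (edgeR adjusted p = 0.127). The chaperones of base assembly split, PSMD5 rising (log2 0.17, not called with plain library totals) and PSMD10 falling to 45.3 ± 2.62 CPM in H1650 SRSF2 cells, against 50.3 ± 0.635 CPM in untreated H1650 cells (log2 -0.15, SE 0.05, edgeR adjusted p = 0.00893).

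In A549 few proteasome genes passed the test. With SRSF2 over-expression 3 of 35 members rose (8.57%), where 16.4% of all genes tested rose, and 5 fell (14.3%), where 15.9% of all genes fell. With a log2 fold change of at least 0.25 also required, 2 members rose and 0 fell, against 10.1% and 8.09% of all genes. Without that threshold, among genes of at least 25 CPM 23.1% rose and 23.1% fell, and among the 32 members of that level 3 rose and 5 fell. The median of the members was log2 -0.02, against 0.00 for all genes. Those that rose were PSMB9, PSMB8 and PSMD7. PSMB9 gave 14.0, 14.0 and 13.1 CPM in A549 SRSF2 libraries, against 11.0, 8.45 and 9.78 CPM in untreated A549 libraries (log2 0.49, SE 0.09, edgeR adjusted p = 8.68e-05), and the groups did not overlap. PSMB8 gave 14.9, 15.1 and 13.5 CPM in A549 SRSF2 libraries, against 11.7, 12.7 and 12.1 CPM in untreated A549 libraries (log2 0.26, SE 0.08, edgeR adjusted p = 0.0157). It was not called without untreated replicate 1 (edgeR adjusted p = 0.0642), SRSF2 replicate 1 (edgeR adjusted p = 0.0568) or SRSF2 replicate 2 (edgeR adjusted p = 0.0809). PSMD7 averaged 102 ± 1.79 CPM in A549 SRSF2 cells and 93.2 ± 2.92 CPM in untreated A549 cells (log2 0.13, SE 0.04, edgeR adjusted p = 0.012), and was not called without untreated replicate 2 (edgeR adjusted p = 0.0696) or SRSF2 replicate 1 (edgeR adjusted p = 0.0552).

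The other inducible genes did not pass the test in A549. PSMB10 gave 4.01, 5.32 and 5.06 CPM in A549 SRSF2 libraries, against 3.98, 4.31 and 4.29 CPM in untreated A549 libraries (log2 0.20, SE 0.13, edgeR adjusted p = 0.25). It shares 644 exon bases with ENSG00000261884 on the same strand, a gene at 1.70 CPM in A549 SRSF2 and 2.43 CPM in untreated A549 cells, so reads may be split between them. PSME1 averaged 77.8 ± 1.77 CPM in A549 SRSF2 cells and 73.8 ± 4.10 CPM in untreated A549 cells (log2 0.08, SE 0.05, edgeR adjusted p = 0.256), and PSME2 92.5 ± 6.82 CPM and 86.2 ± 1.24 CPM in the same groups (log2 0.10, SE 0.05, edgeR adjusted p = 0.113).

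Among constitutive genes PSMD6 fell most in A549, to 71.6, 67.2 and 73.0 CPM in SRSF2 libraries, against 82.2, 83.2 and 78.7 CPM in untreated libraries (log2 -0.20, SE 0.05, edgeR adjusted p = 9.55e-04). PSMC5 (log2 -0.13), PSME3 (-0.12), PSMD1 (-0.11) and PSMC4 (-0.10) fell by less. PSMC4 was not called when any of untreated replicates 1 and 3 and the 3 SRSF2 libraries was left out (edgeR adjusted p up to 0.153). The calls of PSMC5 (without untreated replicate 3 or SRSF2 replicate 2 or 3), PSMD1 (without untreated replicate 1 or SRSF2 replicate 3) and PSME3 (without SRSF2 replicate 2) were also lost, while that of PSMD6 held with each library left out. The number of members lower was 2 without A549 SRSF2 replicate 2 or 3, 3 without A549 untreated replicate 1 or 3, and 8 with RLE size factors in place of TMM. Of all 15991 genes 2988 were lower with RLE size factors, against 2542 with TMM. Leaving out any of those libraries gave 2008 to 2287 lower genes among 16162 to 16176 tested. The number of members that rose was 1, PSMB9, without A549 SRSF2 replicate 1, where 2203 of 16173 genes rose. PSMB5, PSMB6 and PSMB7 were at log2 -0.05, -0.06 and 0.07 in A549 (edgeR adjusted p = 0.359, 0.319 and 0.124), and PSME4 at 0.11 (edgeR adjusted p = 0.0613, or 0.0442 without SRSF2 replicate 3).

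The response to SRSF2 differed between the lines for most members. Tested as the H1650 response minus the A549 response, 22 of 35 members were more positive in H1650 (62.9%), where 23.5% of all genes tested were, and 1 was more negative, where 24% of all genes were. At a difference of at least 0.25, 16 members were more positive and 0 more negative, against 20.3% and 20.8% of all genes. Without that threshold, among genes of at least 25 CPM 30.9% were more positive and 32.9% more negative, and among the 32 members of that level 20 and 1 were. With plain library totals 15 members were more positive, 3 of them inducible, and 3 were more negative. Of all 15991 genes 3102 were more positive and 4668 more negative with those totals. With TMM scaling all 5 inducible genes were among the 22. The difference was 0.73 on the log2 scale for PSME1 (SE 0.07, edgeR adjusted p = 4.52e-10), 0.45 for PSME2 (SE 0.07), 0.41 for PSMB10 (SE 0.15, edgeR adjusted p = 0.022), 0.37 for PSMB8 (SE 0.10, edgeR adjusted p = 0.00248) and 0.34 for PSMB9 (SE 0.12, edgeR adjusted p = 0.0143). PSMB9 and PSMB10 were not called with plain library totals (edgeR adjusted p = 0.0568 and 0.0668), PSMB9 also not without A549 untreated replicate 1 (edgeR adjusted p = 0.103), and PSMB10 not without A549 untreated replicate 2 or 3, A549 SRSF2 replicate 1 or H1650 SRSF2 replicate 3 (edgeR adjusted p from 0.0527 to 0.111). Among constitutive genes the difference was largest for PSMA1, with its few counts (log2 0.98, SE 0.32, and 0.83 with an edgeR adjusted p of 0.0519 without H1650 SRSF2 replicate 1), PSMC4 (0.83, SE 0.05), PSMC1 (0.56, SE 0.05) and PSMA4 (0.51, SE 0.06). PSMC4, PSMC5, PSMD6 and PSME3 rose in H1650 and fell in A549. FTSJ3, which overlaps PSMC5, did so too (log2 0.47 in H1650 and -0.12 in A549). BECN1 shares 300 exon bases with PSME3 on the other strand. It rose in H1650 (log2 0.20) and was not called in A549 (log2 0.01). Whether reads were shared in these pairs was not tested. PSMD12 was the member more negative in H1650 (log2 -0.15, SE 0.06, edgeR adjusted p = 0.0344), and this call was lost without any of 7 single libraries.

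The lines also differed before over-expression. Of the 35 members, 10 were higher in untreated H1650 than in untreated A549 cells (28.6%), where 40.1% of all genes tested were, and 23 were lower (65.7%), where 42.3% of all genes were. By at least 0.25 on the log2 scale 8 members were higher and 22 lower, against 36.7% and 38.9% of all genes. Without that threshold, among genes of at least 25 CPM 48% were higher and 42.7% lower, and among the 32 members of that level 8 were higher and 22 lower. The immunoproteasome subunits were higher in H1650. PSMB10 averaged 29.1 ± 0.586 CPM in untreated H1650 and 4.19 ± 0.188 CPM in untreated A549 cells (6.92-fold, log2 2.79, SE 0.10), PSMB8 62.4 ± 5.61 CPM and 12.2 ± 0.508 CPM (5.13-fold, log2 2.36, SE 0.07), and PSMB9 34.9 ± 3.005 CPM and 9.73 ± 1.26 CPM in the same groups (3.58-fold, log2 1.84, SE 0.08), with an edgeR adjusted p of at most 1.04e-20. The constitutive catalytic subunits were lower: PSMB5 averaged 69.0 ± 1.88 CPM in untreated H1650 and 189 ± 4.63 CPM in untreated A549 cells (log2 -1.45, SE 0.05, edgeR adjusted p = 2.75e-25), and PSMB6 and PSMB7 were at log2 -0.44 and -0.25. The inducible cap did not go with the inducible catalytic subunits. PSME1 averaged 33.8 ± 1.64 CPM in untreated H1650 and 73.8 ± 4.10 CPM in untreated A549 cells (log2 -1.12, SE 0.05, edgeR adjusted p = 5.67e-20), and PSME2 was at log2 -0.26 (SE 0.05, edgeR adjusted p = 1.12e-05).

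**Figure D4:**
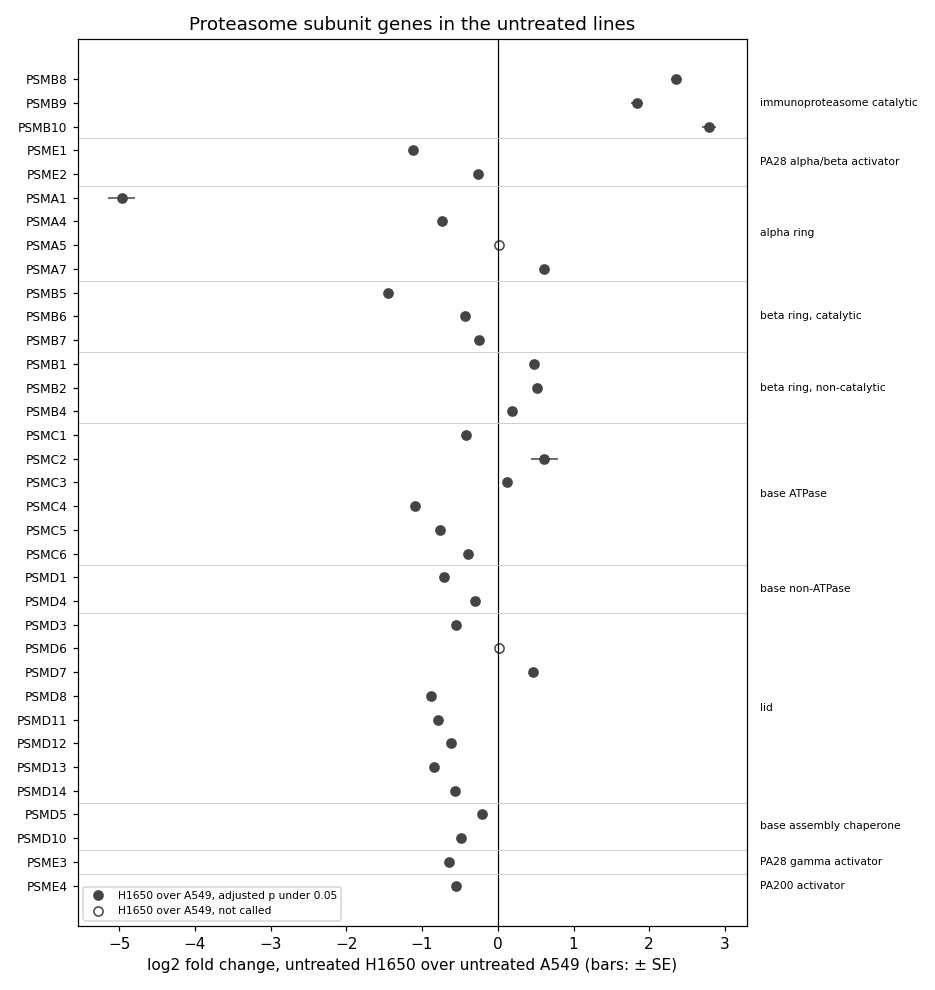
Log2 fold change of untreated H1650 over untreated A549 cells (x axis, bars ± SE) for the 35 members, by role; filled symbols passed an edgeR adjusted p of 0.05. PSMB8, PSMB9 and PSMB10 lie at 1.84 or more, and most other members lie below 0.

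Among constitutive genes 7 were higher and 21 lower in untreated H1650, with a median of log2 -0.47 against -0.04 for all genes. PSMA7 (log2 0.62), PSMC2 (0.61, from few counts), PSMB2 (0.52), PSMB1 (0.48), PSMD7 (0.47), PSMB4 (0.19) and PSMC3 (0.12) were higher. PSMC4 (-1.09), PSMD8 (-0.88), PSMD13 (-0.84) and PSMD11 (-0.79) were among the lower ones, and PSMA1 was at 0.405 ± 0.0968 CPM in untreated H1650 and 12.8 ± 0.513 CPM in untreated A549 cells. PSMA5 and PSMD6 were not called. All 3 non-catalytic beta subunits measured were higher, and all 3 constitutive catalytic ones lower. In untreated libraries the level per kilobase of exon was highest for PSMA7 in both lines, 279 CPM in H1650 and 182 CPM in A549.

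The balance of inducible and constitutive catalytic subunits was set out per library as the ratio of counts per kilobase of exon. PSMB8 over PSMB5 was 0.892, 0.838 and 0.893 in H1650 SRSF2 libraries, against 0.543, 0.478 and 0.579 in untreated H1650 libraries. In A549 it was 0.0478, 0.0482 and 0.0452 in SRSF2 libraries, against 0.0357, 0.0399 and 0.0385 in untreated libraries. The groups did not overlap in either line, and the mean ratio was 1.64 times as high with SRSF2 in H1650 and 1.24 times in A549. PSMB9 over PSMB6 averaged 0.191 ± 0.0190 in H1650 SRSF2 and 0.116 ± 0.00996 in untreated H1650 cells, and 0.0350 ± 0.00127 in A549 SRSF2 and 0.0239 ± 0.00248 in untreated A549 cells, without overlap in either line (SD, n = 3 each). PSMB10 over PSMB7 averaged 0.181 ± 0.0182 in H1650 SRSF2 and 0.134 ± 0.00285 in untreated H1650 cells, again without overlap, while in A549 SRSF2 (0.0176 ± 0.00263) and untreated A549 cells (0.0162 ± 8.38e-04) the groups overlapped. Of the summed level of these 6 catalytic genes per kilobase, the inducible 3 made up 21.7% ± 1.30 in H1650 SRSF2, 15.8% ± 0.703 in untreated H1650, 3.05% ± 0.135 in A549 SRSF2 and 2.44% ± 0.00451 in untreated A549 cells. These ratios are descriptions, with no test. The lengths are unions of all annotated exons (PSMB8 2997 and PSMB9 3072 bases, PSMB5 1765 and PSMB6 1448), which may exceed the transcripts present. The size of each ratio and share therefore depends on the annotation. In the change of a single ratio between groups the lengths cancel, but in that of the share they do not. The counts themselves still depend on how reads from shared exon bases were assigned.

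**Figure D5:**
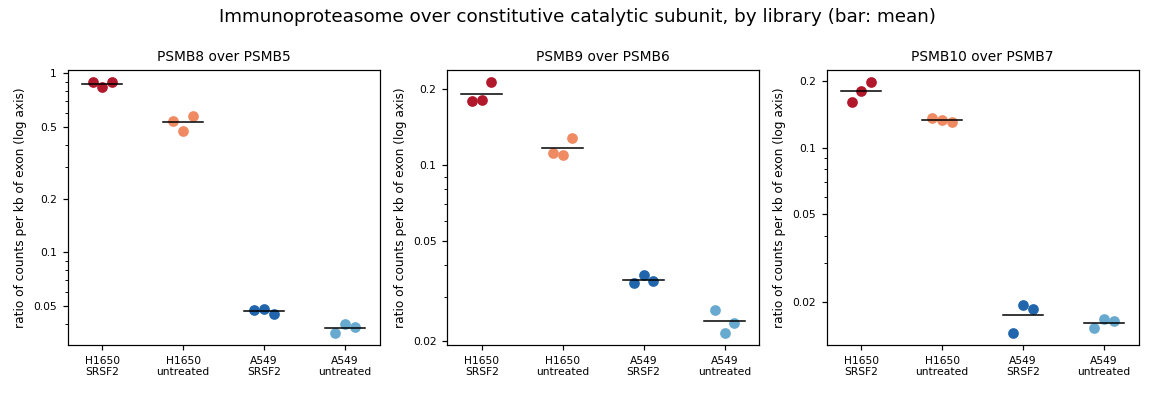
Ratio of each immunoproteasome subunit to the constitutive subunit it replaces, as counts per kilobase of exon (log y axis), in each library; points are libraries and bars the mean of 3. PSMB8 over PSMB5 is 0.838 or more in H1650 SRSF2, 0.579 or less in untreated H1650, and under 0.05 in A549.

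Genes around the proteasome were read from lists, whose counts stand against 31% of all genes tested that rose and 31.3% that fell in H1650, and 16.4% and 15.9% in A549. Of 12 tested genes of class I peptide processing 11 rose and 0 fell in H1650 (median log2 0.79), and 10 rose and 1 fell in A549 (median 0.21). B2M, which pairs with class I heavy chains, averaged 3341 CPM in H1650 SRSF2 and 1209 CPM in untreated H1650 cells (log2 1.47), and 221 CPM in A549 SRSF2 and 190.1 CPM in untreated A549 cells (log2 0.22). TAP1, TAP2 and ERAP2 were not analysed here. Of 13 interferon signalling and NF-kB genes 5 rose and 3 fell in H1650 (median 0.08), near the shares of all genes, while 11 rose and 0 fell in A549 (median 0.29). IRF1, the interferon regulatory factor known to activate immunoproteasome genes, averaged 148 CPM in H1650 SRSF2 and 47.1 CPM in untreated H1650 cells (log2 1.65), and 40.2 CPM in A549 SRSF2 and 31.5 CPM in untreated A549 cells (log2 0.35). IRF7, which drives type I interferon genes, went the other way in H1650, at 0.524 CPM in H1650 SRSF2 and 1.105 CPM in untreated H1650 cells (log2 -1.05, edgeR adjusted p = 0.00143), and was at 17.9 CPM in A549 SRSF2 and 4.05 CPM in untreated A549 cells (log2 2.14). IRF2 was not called in H1650 (log2 0.04) and rose in A549 (log2 0.49).

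The counts of the other lists are small, and several are close to the shares of all genes. Of 7 proteasome assembly factors 3 rose and 2 fell in H1650, and none was called in A549 (0 of 7 with the edgeR test, 1 at an unadjusted p under 0.05, and 0 with DESeq2). POMP, which matures the core particle and favours the immunoproteasome, averaged 69.6 CPM in H1650 SRSF2 and 47.3 CPM in untreated H1650 cells (log2 0.56). AKIRIN2, which brings proteasomes into the nucleus, rose in H1650 as well (log2 0.59), while PSMG4, a chaperone of the alpha ring, fell (log2 -0.62). Of 8 proteins bound to the proteasome 5 rose and 3 fell in H1650, with ADRM1, a ubiquitin receptor, higher (log2 0.30) and UBE3C, a ubiquitin ligase, lower (log2 -0.42). In A549 1 rose, ECPAS (log2 0.21), which fell in H1650 (log2 -0.35). Of 8 ubiquitin shuttle and VCP genes 3 rose and 1 fell in H1650, and 1 rose and 3 fell in A549. Of 6 genes of ubiquitin and its activating enzymes 3 rose in H1650 and 2 in A549. Of 9 genes of the NFE2L1 route, which raises proteasome gene transcription when proteasomes are inhibited, 4 rose and 2 fell in H1650 and 3 rose and 3 fell in A549. MAFF, MAFG and MAFK, partners of NFE2L1 and NFE2L2 on DNA, rose in H1650 (log2 2.19, 0.79 and 0.52). In A549 MAFF rose (log2 1.32), MAFG fell (log2 -0.22) and MAFK was not called (log2 0.06). NFE2L2 rose in both lines (log2 0.37 in H1650, edgeR adjusted p = 4.9e-10, and 0.25 in A549, edgeR adjusted p = 3.75e-06). NFE2L1 itself was at log2 0.02 in H1650 (edgeR adjusted p = 0.624) and at -0.11 in A549 (edgeR adjusted p = 0.014). PSMA8, a testis subunit, was not called in either line.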

How the data were processed

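Raw counts per gene were deposited by the authors, and the submitters' processing notes name fastp 0.20.1, STAR 2.7.7a, featureCounts 2.0.0 and GRCh38. Annotation release, strandedness and how rows of the table were selected are not given in the sources used here. The deposited FPKM table was not used. Libraries were grouped by title. Replicate libraries all differed beyond counting noise (chi-square over its degrees of freedom 2.29 to 8.11).

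For 16076 IDs the symbol came from the name table supplied and for 63 from GENCODE 29, as did coordinates and exon lengths (union of exons). The test was edgeR 4.0.16 quasi-likelihood (R 4.3.3), after filterByExpr and TMM scaling, on all 12 libraries with a mean for each group, leaving 8 residual degrees of freedom. Benjamini-Hochberg adjustment covered 15991 genes, with calls made under 0.05. Contrasts were SRSF2 over untreated in each line, their difference (H1650 minus A549), and untreated H1650 over untreated A549. SEs are approximate, from the fold change and its F statistic. CPM is TMM-scaled, except in summed marker levels, which use plain totals. The pipeline was tested on simulated data. Alternatives were RLE factors, plain totals, DESeq2 1.42.0, no filter, the groups of the contrast alone, a replicate block, a fold threshold and leaving out each library.

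The protein comparison of the subunits was not made. The members and lists were chosen with earlier results of these data known. Named with values were the inducible genes, their counterparts, PSME3, PSME4, up to 5 called members per direction and contrast by fold change, and up to 4 per list by adjusted p. Some further members and NFE2L1, PSMA8 and EPCAM were named for their role or to complete a count.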

Additional observations from a re-analysis of the deposited data

Results flagged for a closer look

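For 23 of the 35 members the response to SRSF2 differed between the lines by the edgeR test of the difference itself (H1650 minus A549, log2, 3 libraries in each of 4 groups). Of all 15991 genes tested 7601 differed by this test, 23.5% more positive and 24% more negative in H1650. Among the members 22 were more positive and 1 more negative. The inducible genes differed by 0.73 (PSME1), 0.45 (PSME2), 0.41 (PSMB10), 0.37 (PSMB8) and 0.34 (PSMB9). The base ATPases PSMC4, PSMC1, PSMC6, PSMC5 and PSMC3 differed by 0.83, 0.56, 0.47, 0.38 and 0.36. In the core particle the values were 0.98 for PSMA1, which rests on 10 to 25 counts per H1650 library, 0.51 for PSMA4, 0.33 for PSMA5 and 0.17 for PSMB6. The PSMB6 call was lost with plain library totals (0.09, edgeR adjusted p = 0.177) and without A549 SRSF2 replicate 3 (edgeR adjusted p = 0.0517) or H1650 SRSF2 replicate 2 (edgeR adjusted p = 0.0554). In the lid and base they were 0.45 for PSMD6, 0.32 for PSMD8, 0.19 for PSMD14, 0.19 for PSMD3, 0.18 for PSMD13 and 0.16 for PSMD4, of which PSMD14, PSMD3, PSMD13 and PSMD4 were not called with plain library totals. PSME4 differed by 0.34 and PSME3 by 0.23, and PSMD12 in the other direction (-0.15).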

How the results depend on the processing

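The 5 inducible genes rose in H1650 under all alternatives run. In A549, 8 members fell with RLE size factors and 0 with a log2 fold change of at least 0.25 required, against 5. In H1650, 15 rose and 0 fell with that threshold, against 27 and 4, while 7 fell with plain library totals and 2 with the groups of the contrast alone. For the difference, 0 were more negative with RLE size factors, DESeq2 or the fold threshold, and 3 with plain library totals, against 1, while 15 were more positive with plain library totals, against 22. Of all 15991 genes, 2988 fell in A549 with RLE size factors, against 2542. With plain library totals 5947 fell in H1650, against 5003. For the difference those totals gave 3102 more positive and 4668 more negative genes, against 3758 and 3843. Leaving out each library of a comparison in turn gave 1 to 4 members higher and 2 to 5 lower in A549, 24 to 27 and 3 to 6 in H1650, 20 to 22 and 0 to 3 for the difference, and 10 and 23 in each fit for the untreated lines. The PSMB5 difference ran from -0.0707 without H1650 SRSF2 replicate 2 to 0.0261 without H1650 SRSF2 replicate 1 (edgeR adjusted p = 0.747), against -0.0329. The cause was not tested. Same-numbered libraries shared little (residual correlations -0.0197 to 0.0237) and were not treated as pairs. With a replicate block 27 members rose and 4 fell in H1650, 4 and 5 in A549, 22 and 1 for the difference, and 8 and 23 between the untreated lines. PSMA1 and PSMC2 rest on few counts in H1650, 10 to 25 and 105 to 166 per library.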
